A study of Mus musculus with 6 samples.

Results

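The genes that switch between a non-neuronal and a neuronal state were followed in motor neurons (MNs) made from mouse embryonic stem cells (mESCs). They were listed by name, with earlier results of these data known, and are 10 of 14926 loci that have a gene symbol, a value above 0 in both genotypes and at least 1 FPKM in one of them. FPKM are fragments scaled to transcript length and to library size. The 5 non-neuronal repressors are Rest, Rcor1, Rcor2, Rcor3 and Ptbp1. The 5 neuronal counterparts are Myt1, Myt1l, St18, Ptbp2 and Srrm4. All 10 were found, each at a single locus, and all 10 passed the 1 FPKM minimum, Myt1l and Srrm4 through the control MNs alone.

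Both genotypes came from mESC lines on the FVB/N background that carry the human SMN2 transgene and eGFP under the HB9 promoter. Hb9 is the control line, labelled wildtype, with mouse Smn intact (SMN2+/+;mSmn+/+). A2 models spinal muscular atrophy (SMA) and lacks mouse Smn (SMN2+/+;mSmn-/-). Embryoid bodies of both lines received 1 µM retinoic acid and 1 µM Smoothened agonist (SAG) for 5 days, and live GFP-positive cells were then sorted and their RNA sequenced in 3 samples per genotype. These are called control MNs (Hb9) and SMA MNs (A2) here, as the labels have them. The reporter, and not a panel of MN proteins, defined the sorted cells. Each genotype is 1 cell line, so genotype and line cannot be told apart. The deposited table holds 1 FPKM value per gene and genotype, pooled over the 3 samples. No value has an SD, no difference between the genotypes has a replicate check, and the reads behind each value are unknown. Differences are therefore given as log2 ratios of FPKM, A2 SMA over Hb9 control, without a p-value.

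REST, the product of Rest, is a zinc finger repressor that binds a DNA element named RE1 and keeps neuronal genes silent outside the nervous system. It works through corepressors, among them the CoREST scaffolds encoded by Rcor1, Rcor2 and Rcor3, which carry the histone demethylase LSD1 and histone deacetylases. PTBP1 is an RNA-binding protein that represses neuronal exons, including one in Ptbp2, whose skipping sends that transcript to decay. In developing neurons PTBP2 takes over from PTBP1, and the splicing factor SRRM4 promotes neuronal microexons and the splicing of Rest to a truncated form. Myt1, Myt1l and St18 encode related zinc finger proteins of the neural lineage. MYT1 acts with proneural factors against Notch targets in progenitors, and MYT1L represses non-neuronal genes in neurons. The microRNAs miR-9 and miR-124 are neuronal, are under REST control and target mRNAs of the repressors.

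A few checks of the table bear on every value below. Smn1, the disrupted gene, had 137 FPKM in control MNs and 5.26 FPKM in SMA MNs (log2 ratio -4.70). Over the 14926 loci the log2 ratio had its median at -0.29 and its quartiles at -0.89 and 0.19, with 65.9% of loci lower in SMA MNs. Mnx1, which encodes HB9, had 41.2 and 44.2 FPKM. Other MN markers were low in the A2 samples, which are labelled as MNs. Without Mnx1, 6 of them were in the table and 5 passed the minimum. Of these 5, Lhx3, Lhx4 and Chat reached 1 FPKM in control MNs alone and so had to be lower, and the other two, Isl1 and Isl2, were at least 2-fold lower in SMA MNs, as 17.8% of all loci with 1 FPKM in both genotypes were. The summed level of these 6 was 175 FPKM in control MNs and 8.39 FPKM in SMA MNs. All 9 embryonic stem cell markers were at least 2-fold higher in SMA MNs, from 1.16 to 3.37 on the log2 scale, against 6.83% of all loci, and their sum was 242 and 1583 FPKM. Pou5f1, the pluripotency factor Oct4, had 98.3 and 775 FPKM. The neural progenitor markers had sums of 890 and 47.1 FPKM, and 4 of the 5 with 1 FPKM in both genotypes were at least 2-fold lower, against the same 17.8%. The 5 markers of the fibroblast feeder layer had sums of 58.9 and 26.0 FPKM. Of these, Postn and Lum reached 1 FPKM in control MNs alone, and the other 3 were at least 2-fold lower but not relative to the median gene. For glia the sums were 37.9 and 17.0 FPKM, and for endoderm 30.8 and 19.0 FPKM. No marker found in the table was listed at 0 in either genotype. In such bulk samples, fewer cells of a type and less RNA per cell cannot be told apart, and the part of these markers in the results below was not tested.

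The non-neuronal repressors and the neuronal counterparts differed in their ratios. The repressors lay close to the median gene apart from Rest and Ptbp1, which were higher in SMA MNs, and every neuronal counterpart was at least 3.27-fold lower. The repressors had a median log2 ratio of -0.34 (range -0.61 to 1.37) and the counterparts one of -4.10 (range -4.72 to -1.71), a difference of 3.76 between the medians. The counterpart median is the value of Srrm4, which was under 1 FPKM in SMA MNs. With a pseudocount of 1 FPKM that median was -3.17 and the difference 2.84. Summed over the 5 repressors, the level was 505 FPKM in control MNs and 500 FPKM in SMA MNs. Summed over the 5 counterparts, it was 217 and 28.4 FPKM. The ranges of the ratios of both sides did not overlap, but the 2 sides were listed with earlier results known. Myt1l and Srrm4 passed the minimum in control MNs alone and so had to be lower, and Rest has the status FAIL. Of all loci, 11.3% had a ratio below that of Ptbp2, the highest counterpart. For Rcor2, the lowest repressor, 34.6% did.

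**Figure D1:**
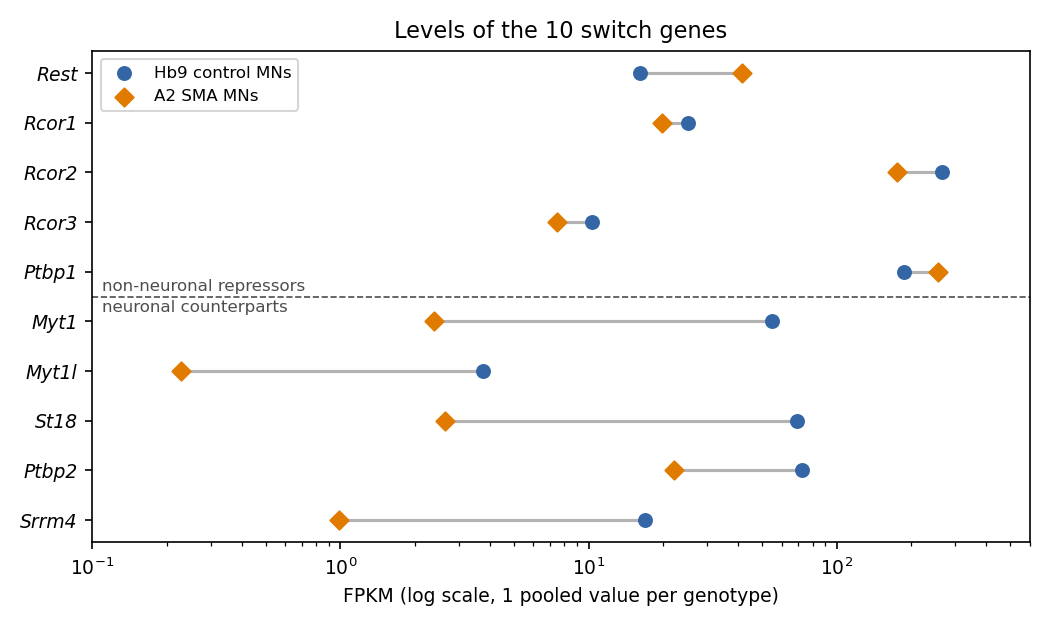
FPKM of the 10 genes on a log scale, with 1 pooled value per genotype (circles for control MNs, diamonds for SMA MNs) and no error bar because the table gives none. The diamond lies to the right of the circle for Rest and Ptbp1 among the 5 repressors above the dashed line and to the left of it for all 5 neuronal counterparts below the line, with Myt1l and Srrm4 ending under 1 FPKM.

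Of the 10 genes, 5 were at least 2-fold lower in SMA MNs, where 22.4% of all loci were, and 1 was at least 2-fold higher, where 6.83% of all loci were. At a limit of 4-fold, 4 of the 10 were lower against 8.88% of all loci, and none was higher. At 1.5-fold, 6 were lower and 1 was higher, against 35.4% and 12.7% of all loci. Myt1l and Srrm4 passed the minimum only in control MNs and so had to be lower. Among loci with at least 1 FPKM in both genotypes 17.8% were at least 2-fold lower, and 3 of the 8 genes with that level were (Myt1, St18 and Ptbp2).

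Rest is at chr5:77689349-77715457 in NCBI m37, the build of the table. It had 16.1 FPKM in control MNs and 41.4 FPKM in SMA MNs. The log2 ratio was 1.37, a 2.58-fold difference, and 95.7% of all loci had a lower ratio. The authors' table marks the comparison of Rest with the status FAIL, by which Cuffdiff reports a test that it did not complete. That status stands at 14.0% of the 14926 loci. The value for Rest covers the whole gene, so full-length transcripts and those with the neuronal exon that SRRM4 promotes were not separated.

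The 3 CoREST genes were all lower in SMA MNs by a little more than the median gene. Rcor2, the CoREST paralogue prominent in stem cells and neural progenitors, is at chr19:7341815-7349715 and was by far the most abundant at 267 and 175 FPKM (log2 ratio -0.61). Its level exceeded that of 98.5% of loci in control MNs. Rcor1, which encodes the founding CoREST protein, is at chr12:112277553-112354112 and had 25.1 and 19.8 FPKM (-0.34). Rcor3 is at chr1:193821311-193974895 and had 10.3 and 7.47 FPKM (-0.46). Relative to the median gene these log2 ratios were -0.32 for Rcor2, -0.05 for Rcor1 and -0.17 for Rcor3. The family as a whole had 302 FPKM in control MNs and 203 FPKM in SMA MNs. Rcor2 made up 88.3% of that sum in control MNs and 86.5% in SMA MNs, and the order Rcor2, Rcor1, Rcor3 was the same in both genotypes. The Rcor3 locus in the table spans 153585 bp, 3.89 times the RefSeq gene, and Traf5 is listed at the same locus with 0.754 and 0.768 FPKM.

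Ptbp1 is at chr10:79314126-79345919. It had 186 FPKM in control MNs and 256 FPKM in SMA MNs, a log2 ratio of 0.46 that was above the ratio of 84.2% of all loci. Ptbp2, its neuronal paralogue, is at chr3:119421401-119486306 and had 72.4 and 22.2 FPKM. Its log2 ratio was -1.71, a 3.27-fold difference, and 11.3% of all loci had a lower ratio. The paralogues differed in direction, and the ratio of Ptbp1 to Ptbp2 was 2.57 in control MNs and 11.6 in SMA MNs, a 4.49-fold difference. The paralogue Ptbp3, listed under its older symbol Rod1, had 44.0 and 65.4 FPKM (log2 ratio 0.57). The sum of the 3 Ptbp genes was 303 and 344 FPKM, a log2 ratio of 0.18. Within it, the share of Ptbp1 was 61.6% in control MNs and 74.5% in SMA MNs, that of Ptbp2 was 23.9% and 6.44%, and that of Ptbp3 was 14.5% and 19.0%. The table's Ptbp1 locus spans 31794 bp, 3.18 times the RefSeq gene, and 5 entries of the table share it. One of these, BC005764, had 162 and 14.6 FPKM (log2 ratio -3.48). In the GENCODE annotation, 9.22% of the exon bases of Ptbp1 are also exonic in Gm17134 on the opposite strand, 6.22% in E130317F20Rik and 5.30% in Plppr3. The library kit does not mark strand, so reads from these shared bases cannot be told apart.

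**Figure D2:**
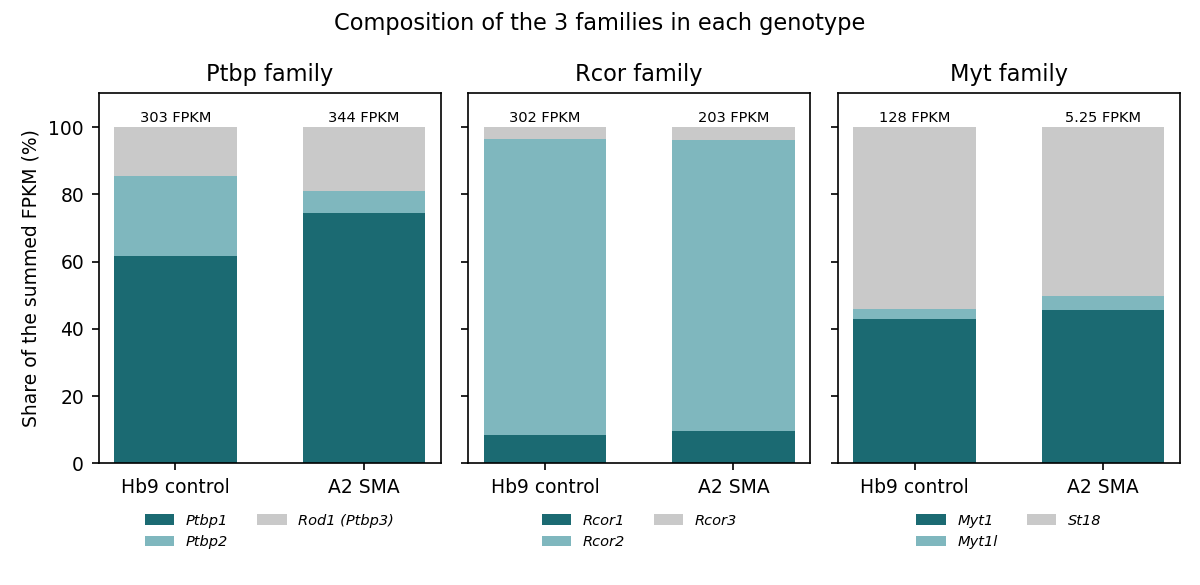
Share of the summed FPKM of each family (percent, vertical axis) taken by its 3 members in control and SMA MNs, with the sum above each bar. In the Ptbp family the share of Ptbp2 is 23.9% in control MNs and 6.44% in SMA MNs, while Rcor2 takes 88.3% and 86.5% of its family and the Myt family keeps its makeup as its sum goes from 128 to 5.25 FPKM.

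The 3 Myt genes were each more than 16-fold lower in SMA MNs. Myt1, the member of proliferating and differentiating progenitors, is at chr2:181498036-181563049 and had 54.8 FPKM in control MNs and 2.39 FPKM in SMA MNs (log2 ratio -4.52, 23.0-fold). St18 is at chr1:6477312-6851021 and had 69.3 and 2.63 FPKM (-4.72, 26.3-fold), a ratio below which 0.750% of all loci lay. Myt1l, the postmitotic member, is at chr12:30213249-30608074 and had 3.74 and 0.227 FPKM (-4.04, 16.5-fold). The value of Myt1l was the one of the 3 that changed most with a pseudocount of 1 FPKM, to -1.95. Myt1l was the least abundant of the 3 in both genotypes, and St18 and Myt1 stood close to each other at a ratio of 1.26 and 1.10. Their sum was 128 FPKM in control MNs and 5.25 FPKM in SMA MNs, a 24.4-fold difference. The makeup of this sum was similar in both genotypes. Myt1 held 42.9% and 45.5% of it, St18 held 54.2% and 50.2%, and Myt1l held 2.92% and 4.33%.

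Srrm4 is at chr5:116888709-117041826. It had 16.9 FPKM in control MNs and 0.983 FPKM in SMA MNs, a log2 ratio of -4.10 and a 17.1-fold difference, and 1.57% of all loci had a lower ratio. Srrm3, the paralogue that also acts on neuronal microexons, had 20.4 and 1.23 FPKM (-4.05). Srrm3 and Srrm4 stood at a ratio of 1.21 in control MNs and 1.25 in SMA MNs. The broadly expressed relatives Srrm1, with 254 and 263 FPKM (0.05), and Srrm2, with 136 and 108 FPKM (-0.33), were within 2-fold. In control MNs the levels of Rest and Srrm4 were nearly equal, at a ratio of 0.953. In SMA MNs Rest was 42.1 times the level of Srrm4, which sets a value of status FAIL over one under 1 FPKM. With a pseudocount of 1 FPKM the log2 ratio of Srrm4 between the genotypes was -3.17. The ratio of Rest to Myt1 was 0.293 in control MNs and 17.3 in SMA MNs.

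**Figure D3:**
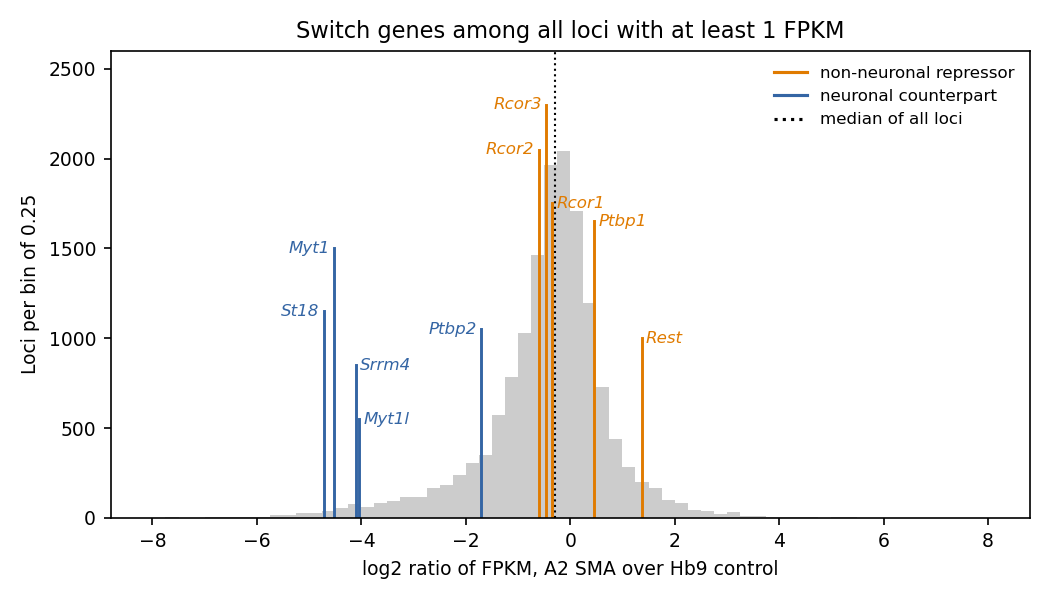
Log2 ratio of FPKM (A2 SMA over Hb9 control, horizontal axis) for 14926 loci in bins of 0.25 (grey, vertical axis in loci per bin), with the 10 genes as vertical lines whose heights only separate the names. Rest lies at 1.37 to the right of the bulk, the CoREST genes lie by the dotted median of -0.29, and Myt1, St18, Srrm4 and Myt1l lie beyond -4.

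The partners through which REST acts lay near the median gene. Of 17 genes of the REST and CoREST complexes, all past the minimum, 2 were at least 2-fold lower in SMA MNs and none was at least 2-fold higher, against 22.4% and 6.83% of all loci, with a median log2 ratio of -0.45 against -0.29 over all loci. Both genes past 2-fold were only just so, and the lower of their ratios was that of the corepressor Ctbp1, with 149 and 69.0 FPKM (-1.11, status FAIL). When the ratios were centred on the median gene, neither was past 2-fold and 2 others of the 17 were higher past it. The deacetylase Hdac2 had 210 and 132 FPKM (-0.67). Phf21a, which encodes the histone H3 reader BHC80 of the LSD1 complex, had 104 and 54.3 FPKM (-0.93). The scaffold Sin3b, which binds the other repression domain of REST, had 190 and 214 FPKM (0.17). Ctbp2, at a locus that the table shares with Fgfr2, had 158 and 262 FPKM (0.73). Of 8 genes that control the stability of REST protein or its phosphorylation, none was past 2-fold, with a median of 0.05. Among them, Usp7, a deubiquitinase of REST, had 143 and 209 FPKM (0.55), and Fbxw11, which encodes a β-TrCP ubiquitin ligase subunit, had 90.0 and 54.8 FPKM (-0.71, status FAIL).

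Known neuronal targets of REST were mostly lower. Of 27 listed, 25 were in the table and 24 passed the minimum, and 21 of these were at least 2-fold lower in SMA MNs and 1 was higher. The median log2 ratio was -2.59. Of the 24, 5 passed in control MNs alone and so had to be lower. Of the 19 with at least 1 FPKM in both genotypes, 16 were at least 2-fold lower, where 17.8% of all such loci were. Stmn2, a regulator of microtubules in axons, had 242 and 78.0 FPKM (-1.63, status FAIL). Syp, which encodes the synaptic vesicle protein synaptophysin, had 59.5 and 6.01 FPKM (-3.31). L1cam, an axonal adhesion molecule at a locus shared with Arhgap4 and Naa10, had 133 and 51.9 FPKM (-1.35). Chat, the acetylcholine-synthesizing enzyme of MNs, had 15.5 and 0.344 FPKM (-5.49). The glycine receptor gene Glra1 had 34.7 and 0.291 FPKM (-6.90), and the AMPA receptor gene Gria2 had 5.93 and 0.0713 FPKM (-6.38). The 3 exceptions, chosen after their values were seen, were the NMDA receptor gene Grin1, at 5.12 and 12.7 FPKM (1.31), Bdnf, a neurotrophin, at 1.07 in both, and the neuropeptide precursor gene Vgf, at 1.94 and 1.48 FPKM (-0.39). Many of these genes are neuronal markers as well as REST targets. The MN markers above other than Mnx1 were also lower in SMA MNs, while the stem cell markers were higher. How far these markers bear on the REST targets was not tested.

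**Figure D4:**
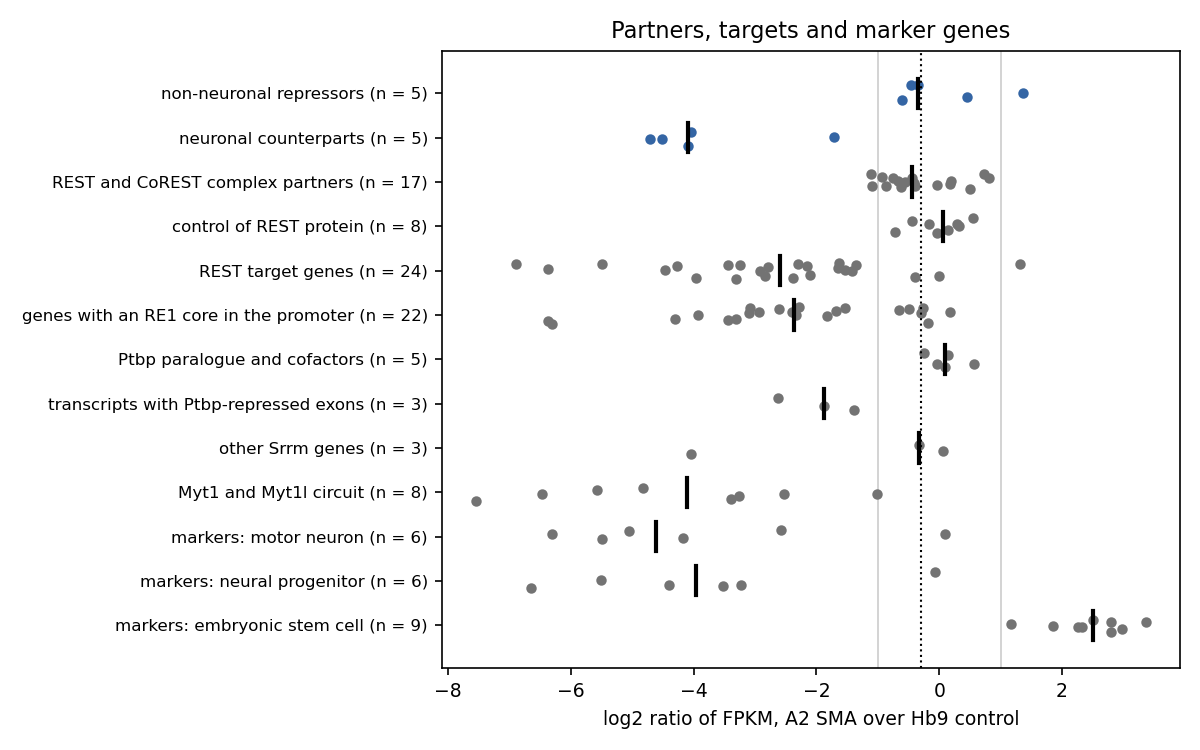
Log2 ratio of FPKM (A2 SMA over Hb9 control) for each gene past the 1 FPKM minimum in 13 lists, with a bar at each list's median, a dotted line at the median of all loci and grey lines at 2-fold. The REST partners lie around the dotted line, the 5 Ptbp cofactors lie to its right within 2-fold, the REST targets and the Myt circuit lie mostly to its left, and the 9 stem cell markers lie to its right.

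The RE1 element was then looked for in promoters, from 250 bases before to 50 bases after each RefSeq start in GRCm38.p6. The core searched on both strands was TCAGCACC, any 2 bases and GGACAG, with at most 1 mismatch in its 14 fixed letters. It was found in 30 of 32851 promoters (0.0913%). The windows below are shown because they place this element beside genes whose levels are given here, and capitals mark the core.
Lhx3: gcctcctTCAGCACCGCGGACAGcgccagc
Ogdhl: tgggaggTCAGCACCTCGGACAGcgagggc
Celsr3: gctccgtTCAGCACCGTGGGCAGcacttct
Gria2: ttcgattTTAGCACCGCGGACAGcgctttg
Syn1: gtcggatTCAGCACCGCGGTCAGagccttc
The windows lie, in GRCm38.p6, at chr2:26208269-26208298 on the minus strand for Lhx3, chr14:32321908-32321937 on the plus strand for Ogdhl, chr9:108825912-108825941 on the plus strand for Celsr3, chr3:80802983-80803012 on the plus strand for Gria2, and chrX:20921127-20921156 on the minus strand for Syn1. Lhx3 and Ogdhl hold every fixed letter. Counted from 1 at the 5′ end of the core, the change is A13G in Celsr3, C2T in Gria2 and A13T in Syn1.

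Most genes with this core in the promoter were lower in SMA MNs, but many reached the minimum in control MNs alone. The 30 promoters belong to 28 genes, and 22 of them had at least 1 FPKM in either genotype, of which 16 were at least 2-fold lower in SMA MNs and none was as much higher. Since 12 of the 22 passed in control MNs alone, they had to be lower. Among the 10 with at least 1 FPKM in both genotypes, 4 were at least 2-fold lower, where 17.8% of all such loci were. Lhx3, a LIM homeobox factor of MNs, had 27.6 and 0.348 FPKM (log2 ratio -6.31). Celsr3, an axon guidance cadherin whose locus has the status FAIL, had 24.0 and 2.20 FPKM (-3.45), and the synapsin gene Syn1 had 6.98 and 2.42 FPKM (-1.53). Ogdhl, which encodes an oxoglutarate dehydrogenase-like protein, had 41.1 and 46.4 FPKM (0.17) with a core as complete as that of Lhx3. The genes of these windows were chosen after their values were seen. None of the 8 switch genes with a promoter in the RefSeq table held the core, the closest being Myt1l with 3 mismatches. These are letter matches and do not show binding.

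Transcripts that host miR-124 and miR-9 were lower in SMA MNs, and those of Mir9-2 and Mir124a-2 reached the minimum in control MNs alone and so had to be. The Mir124a-1 host A930011O12Rik (Rncr3) had 18.4 and 2.02 FPKM (log2 ratio -3.19). The Mir9-2 host C130071C03Rik, at chr13:83861160-83880913, had 29.4 and 0.462 FPKM (-5.99). The Mir124a-2 locus, chosen after its values were seen, had 36.7 and 0.653 FPKM (-5.81), while Mir124a-3 and Mir9-3 were listed at 0 in both genotypes. Mature microRNAs were not measured in these libraries. The mature miR-9 sequences in RefSeq, with the seed (bases 2 to 8) in capitals, are shown because the seed of the 5p arm has matches in the mRNAs of the repressors.
mmu-miR-9-5p: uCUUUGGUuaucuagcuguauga
mmu-miR-9-3p: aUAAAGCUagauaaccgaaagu
Rest: tttctgaggcaaACCAAAGg
Ptbp1: tcaaaattttggACCAAAGt
The lower pair of lines are mRNA stretches after the stop codon in GENCODE M21, beginning their match (capitals) at base 3192 in Rest and base 740 in Ptbp1. A single match to the 5p seed was found in each of 5 of the 10 genes, namely Rest, Rcor3, Ptbp1, Ptbp2 and Srrm4. The 3p seed had none in the 10. The 5p match is common, held by 28.5% of genes with a 3′ region from 0.8 to 1.2 times as long as that of Rest and by 13.2% for Ptbp1. It was present on both sides of the switch, so it did not separate the repressors, 3 of 5 with a match, from the neuronal counterparts, 2 of 5.

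PTBP1 and its paralogue repress exons of Dlg4 and Gabbr1, and both transcripts were at least 2-fold lower in SMA MNs. Dlg4, which encodes the postsynaptic scaffold PSD-95 and loses its transcript to decay when its regulated exon is skipped, had 138 and 22.3 FPKM (log2 ratio -2.63). The GABA-B receptor gene Gabbr1 had 100 and 38.2 FPKM (-1.39). Of the Ptbp paralogue and cofactors, 0 of 5 were past 2-fold, against 22.4% of all loci lower and 6.83% higher, and their median was 0.10. Of these, Hnrnpl had 582 and 624 FPKM (0.10, status FAIL), and Raver1, a PTBP1 corepressor, had 72.6 and 80.5 FPKM (0.15). Gene-level FPKM does not show which exons were included.

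All 8 genes of the circuit around MYT1 and MYT1L were at least 2-fold lower in SMA MNs, against 22.4% of all loci, and the median log2 ratio was -4.12. One of them, chosen after its values were seen, is the Notch target Hes1, whose log2 ratio of -1.02 was not past 2-fold under any of 3 other scalings. The 5 genes with at least 1 FPKM in both genotypes were all at least 2-fold lower, against 17.8% of such loci, and had a median of -3.26. On the Notch side, the receptor Notch1 had 139 and 24.3 FPKM (-2.52), its ligand Dll1 had 91.2 and 8.65 FPKM (-3.40), and the targets Hes5 and Hey1 had 65.3 and 0.349 FPKM (-7.55) and 71.9 and 7.51 FPKM (-3.26). On the proneural side, Neurog2 had 19.9 and 0.225 FPKM (-6.47). Both arms of the circuit were thus lower together with Myt1. Of 8 other neuronal RNA-binding proteins, 7 were at least 2-fold lower, against 22.4% of all loci, with a median of -3.66. Of the 6 with at least 1 FPKM in both genotypes 5 were, against 17.8% of such loci, and the median of the 6 was -2.84. Elavl4, a neuronal stabilizer of mRNA, had 199 and 11.3 FPKM (-4.14), and Rbfox3, which encodes the neuronal marker NeuN, had 11.5 and 0.784 FPKM (-3.88). The exception was Rbfox2, which is also used outside neurons, at 56.9 and 37.9 FPKM (-0.58, status FAIL).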

How the data were processed

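RNA from 3 Hb9 control and 3 A2 SMA samples was sequenced by the authors as single-end reads. Per the labels they used FastQC 0.10.1, cutadapt, TopHat2 2.04, Cufflinks and Cuffdiff. Reads were mapped to NCBI m37. The deposited table of 41945 loci gives FPKM values, which the authors normalized for transcript length and library size with Cuffdiff and pooled over the 3 samples of a genotype. Its columns of fold changes, test statistics, p and q and the call of significance are the authors' own comparison and were not used. The status was read only as a label. The depth of each sample is not used here.

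Gene symbols were split at commas, and the entry with the highest FPKM was taken for each symbol. Log2 ratios (A2 SMA over Hb9 control) had no pseudocount, a minimum of 1 FPKM in either genotype and a limit of 2-fold. With 1 value per genotype no test could be made. Alternatives were pseudocounts of 0.1 and 1 FPKM, 3 other scalings, summed entries, leaving out FAIL or shared loci, other minimums, limits of 1.5-fold and 4-fold, and, chosen after seeing the data, 0 or 2 mismatches in the RE1 core. Python 3.11.15, numpy 2.4.6, pandas 2.3.3 and matplotlib 3.10.9 were used, and the steps were tested on simulated data.

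The members, gene lists and the rule for naming genes were chosen with earlier results of these data known. All 10 switch genes were named, and of each list at most the 3 most abundant and the 3 with the largest ratio of at least 1 FPKM, unless the text says otherwise. Coordinates of genes are those of the table in NCBI m37. Sequences came from RefSeq (GRCm38.p6) and GENCODE M21, and 8 of the 10 genes matched the promoter table. Protein sequences, miR-124 and splicing were not analysed here. Some genes of the lists enter the counts and medians but are not reported here by name.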

Additional observations from a re-analysis of the deposited data

How the results depend on the processing

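Each of the 10 genes kept the direction of its log2 ratio under every setting that gave it a value, but most settings could not change it. A pseudocount cannot reverse a ratio, and summed entries, shared or FAIL loci left out and other minimums left these ratios as they were. The 3 scalings raised every ratio, so only a gene lower in SMA MNs could have changed direction. Rest ranged from 1.31 to 1.66, Ptbp1 from 0.46 to 0.75, Rcor1 from -0.34 to -0.05 and Ptbp2 from -1.71 to -1.42. The value of Myt1l depended on the pseudocount, at -1.95 with 1 FPKM, and so did that of Srrm4, at -3.17. With that pseudocount the median of the neuronal counterparts was -3.17 and its difference from the repressors 2.84. Requiring 1 FPKM in both genotypes left 3 of the 10 genes at least 2-fold lower. The count of genes at least 2-fold higher was 0 when loci of status FAIL were left out, since Rest is one, and 0 at a 4-fold limit, where the count of higher REST targets was also 0. Over all settings, 72 of 78 recomputed counts and medians of these comparisons stayed within 1.5 times the reported value, medians being compared as unlogged folds. Some of the 78 could not move. The 3 scalings leave the difference between the 2 medians unchanged. Summed entries, shared loci left out and no minimum leave the counts and medians of the 10 genes unchanged. The median of the repressors was -0.34 as deposited and -0.05 centred on the median gene. Centring on the median gene added 0.29 to every log2 ratio, scaling to the upper quartile 0.29, and scaling to Gusb, Pgk1 and Rpl13a 0.14. The 2 REST partners past 2-fold lower were not past it under any of these scalings. With 0 mismatches allowed in the RE1 core, 5 of 6 genes were at least 2-fold lower, but all 5 reached 1 FPKM in control MNs alone and so had to be lower. With 2 mismatches 37 of 74 were, and 17 of the 53 with 1 FPKM in both genotypes. With a pseudocount of 1 FPKM the median of the neuronal RNA-binding proteins was -2.50, and 7 of the 8 genes of the Myt circuit were at least 2-fold lower, as under each of the 3 scalings. No paired analysis was possible because the table gives 1 pooled value per genotype, and for the same reason no sample could be left out. The depth behind single values is unknown, which bears most on genes under 1 FPKM in A2 SMA MNs.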
